A study of Mus musculus with 30 samples.

Results

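The genes described here are 10 components of simple epithelium: the keratins Krt7, Krt8, Krt18 and Krt19, the claudins Cldn3, Cldn4, Cldn6 and Cldn7, and the tight junction proteins Tjp1 and Ocln. They were chosen by name, as 10 of the 29555 genes of the deposited gene tables, together with the peaks of open chromatin that overlap them or lie within 5000 bp of either end. These are 72 of the 158917 peaks of the table for differentiation and 77 of the 181059 peaks of the table for EpiSC strains. All 10 genes passed the filter on low counts in every comparison.

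RNA-seq and ATAC-seq, which measures how accessible chromatin is to a transposase, were run on mouse epiblast stem cells (EpiSCs), pluripotent lines that match the epiblast after implantation, and on definitive endoderm (DE) derived from them. RNA was measured in 5 EpiSC and 4 DE libraries of C57BL/6 (B6), an inbred laboratory strain, in 3 EpiSC libraries of PWK/PhJ (PWK), an inbred strain of wild origin, in 3 EpiSC libraries of B6.129 F1 (F1), a cross of B6 with 129, and in 1 EpiSC library of the inbred strain DBA/2J (DBA). ATAC-seq covered 4 EpiSC and 4 DE libraries of B6, 2 EpiSC libraries of PWK and 1 of DBA. All EpiSCs grew on feeder cells in N2B27-based medium with Fgf2, ActivinA and the Wnt inhibitor NVP-TNKS656, and were lifted with collagenase. DE cells received CHIR99201 (spelled as in the labels) and ActivinA for 16 h, followed by ActivinA and LDN193189 for 24 h, and CXCR4+ cells were then sorted with magnetic beads. The labels also name a time of 46 h, so the length of the protocol is not settled. They call the replicates biological but do not say what separates them, such as culture, line or animal, so the p-values measure the spread between these libraries, which may be technical.

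Keratins of simple epithelia form intermediate filaments as obligate pairs of a type II chain, such as Krt7 or Krt8, and a type I chain, such as Krt18 or Krt19. Krt8 and Krt18 are the earliest keratins of the embryo and mark its first epithelia, among them endoderm and trophoblast. Claudins are membrane proteins with 4 passes that seal the space between cells or form ion pores in tight junctions. Ocln is a further membrane protein of these junctions, and Tjp1 (ZO-1) is the scaffold that ties claudins and Ocln to actin.

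RNA totals ran from 22829536 to 66563933 counts per library, and those of ATAC-seq from 3751526 to 9571127 counts in peaks. Markers of DE summed to between 5166 and 11622 CPM (counts scaled to a common library size) in DE and between 25.1 and 262 CPM in B6 EpiSCs, and all 5 (Sox17, Foxa2, Cxcr4, Gata6, Cer1) rose. Cxcr4 had served for the sort. Of the 5 EpiSC markers, Pou5f1, Sox2 and Nanog fell in DE, while Fgf5 and Otx2 rose. Markers of feeder fibroblasts differed widely between EpiSC libraries, and their values stand beside the results they move with. CPM values are on the scaled library size of each fit and do not allow levels of different genes to be compared, since transcript lengths were not used.

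The sequences of 5 start regions are shown because the transcripts of these genes had the 5 largest log2 changes in DE among the members called. Each run covers 250 bases before to 50 bases after the RefSeq start of assembly GRCm38.p6, 5′ to 3′ along the gene, with capitals marking matches to the motifs searched.
Krt7, chr15:101412153-101412452, plus strand: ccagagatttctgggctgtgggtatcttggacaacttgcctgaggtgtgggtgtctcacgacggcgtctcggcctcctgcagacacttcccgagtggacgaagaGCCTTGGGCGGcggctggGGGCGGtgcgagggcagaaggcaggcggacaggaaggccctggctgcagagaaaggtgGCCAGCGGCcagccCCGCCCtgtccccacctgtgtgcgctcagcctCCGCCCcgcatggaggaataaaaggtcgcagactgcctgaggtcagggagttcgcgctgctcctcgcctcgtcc
Krt8, chr15:102004293-102004592, minus strand: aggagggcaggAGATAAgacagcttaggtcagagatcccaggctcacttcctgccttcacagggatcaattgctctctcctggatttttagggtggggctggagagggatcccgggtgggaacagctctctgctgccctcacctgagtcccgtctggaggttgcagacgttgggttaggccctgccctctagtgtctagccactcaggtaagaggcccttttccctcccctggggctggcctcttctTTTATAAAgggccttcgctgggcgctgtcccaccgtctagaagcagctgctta
Krt18, chr15:102027966-102028265, plus strand: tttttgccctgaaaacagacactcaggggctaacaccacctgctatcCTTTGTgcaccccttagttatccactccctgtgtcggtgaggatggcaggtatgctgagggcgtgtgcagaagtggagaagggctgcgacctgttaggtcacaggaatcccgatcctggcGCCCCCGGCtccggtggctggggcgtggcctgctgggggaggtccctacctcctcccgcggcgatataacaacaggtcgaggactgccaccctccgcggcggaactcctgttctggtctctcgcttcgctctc
Cldn4, chr5:134946885-134947184, minus strand: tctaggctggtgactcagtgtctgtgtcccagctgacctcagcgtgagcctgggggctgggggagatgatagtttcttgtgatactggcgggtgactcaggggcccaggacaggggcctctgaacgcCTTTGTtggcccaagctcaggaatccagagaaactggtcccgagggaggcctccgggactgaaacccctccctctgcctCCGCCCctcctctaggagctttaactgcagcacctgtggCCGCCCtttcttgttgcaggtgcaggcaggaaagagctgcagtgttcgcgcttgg
Tjp1, chr7:65371195-65371494, minus strand: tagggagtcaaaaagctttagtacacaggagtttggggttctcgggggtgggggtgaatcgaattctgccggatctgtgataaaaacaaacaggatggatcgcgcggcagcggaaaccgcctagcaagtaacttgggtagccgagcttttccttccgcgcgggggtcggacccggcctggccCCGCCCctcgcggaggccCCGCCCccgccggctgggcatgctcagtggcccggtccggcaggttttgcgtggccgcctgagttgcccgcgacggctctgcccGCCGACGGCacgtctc

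The start regions of Krt8 and Krt18 differ in composition from that of Krt7: 58.0% and 61.3% of bases were G or C, against 66.3% in Krt7. Peaks of the differentiation table covered all 300 bases of the Krt8 run, 189 of the Krt18 run and 250 of the Cldn4 run, and none of the Krt7 or Tjp1 run. Motifs were searched on both strands as fixed letters: GATA factors by AGATAA, forkhead factors by TGTTTAC, SOX factors by ACAAAG, AP-2 by GCCNNNGGC, grainyhead by AACCGGTT, SP and KLF factors by CCGCCC and the TATA box by TATAAA. The Krt8 run holds a GATA match that begins 239 bases before the start and a TATA match close to the annotated start. The Krt18 run holds a SOX match from 203 bases and an AP-2 match from 83 bases before the start. The Krt7 run holds AP-2 matches from 146 and 70 bases before the start and 4 matches of SP and KLF, one of which overlaps the more distant AP-2 match. Cldn4 has a SOX match from 123 bases before the start and matches of SP and KLF from 44 and 5 bases before it. Tjp1 has matches of SP and KLF from 68 and 50 bases before the start and an AP-2 match from 35 bases after it.

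Over the 11 start regions that RefSeq gives for 9 of the genes (Krt19 is not among them), SP and KLF letters occurred in 8, AP-2 letters in 5, SOX letters in 2, and GATA and TATA letters in 1 each. Forkhead and grainyhead letters were in none of them. Among the 32817 regions of the same length in the table, the shares with a match were 35.6% for SP and KLF, 16.6% for AP-2, 18.7% for SOX, 11.2% for GATA, 13.6% for TATA, 3.65% for forkhead and 0.146% for grainyhead. A match is a string of letters and not a measured binding site.

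The first comparison asks how the 10 genes differ between B6 EpiSCs and the DE made from them. Transcripts of the keratins Krt7, Krt8 and Krt18 rose between 14.6 and 25.2-fold, Cldn7 rose 2.50-fold, and Cldn4 and the scaffold Tjp1 fell. Krt19, Cldn3, Cldn6 and Ocln were not called. Calls are those of edgeR's quasi-likelihood test at a Benjamini-Hochberg adjusted p under 0.05 over the 14085 genes tested. Of the 10 genes, 4 were called higher and 2 lower, where 31.5% of all genes tested were called higher and 30.6% lower. With this share of all genes called, such counts do not set the 10 genes apart. Their median log2 change was 1.07, against -0.01 over all genes tested. The groups did not overlap for 4 of the 10 genes, which is less than the 55.6% seen over all genes. In bulk RNA, fewer cells of a type and less RNA per cell cannot be told apart.

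**Figure D1:**
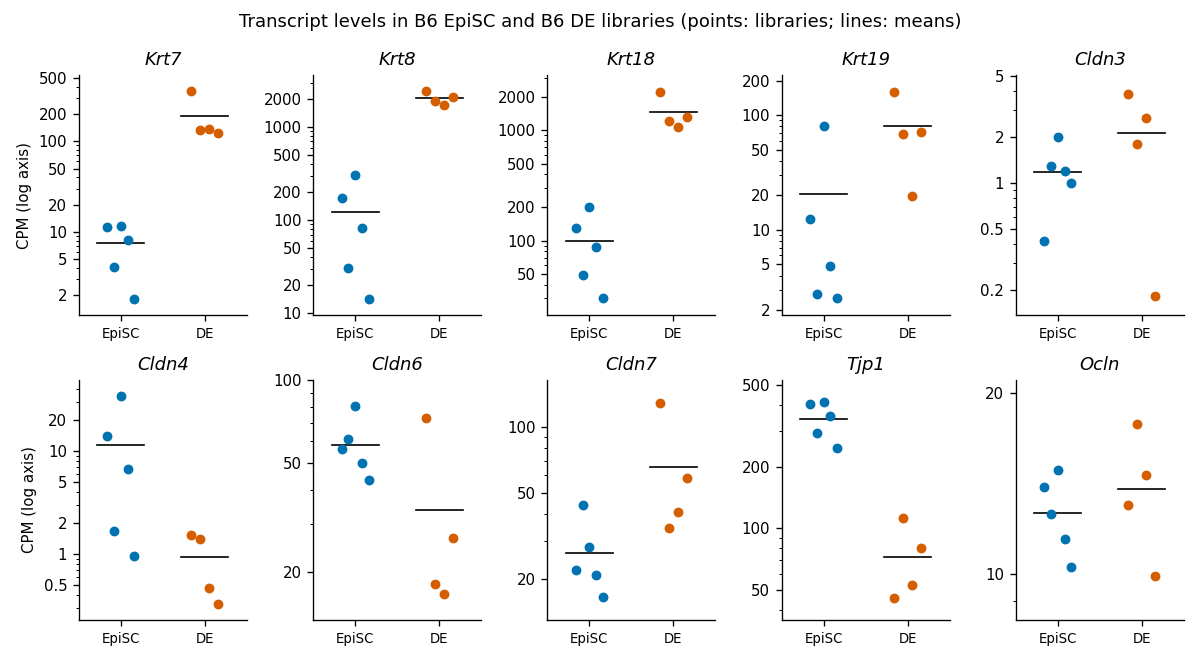
Level of each of the 10 transcripts in CPM on a log axis in the 5 B6 EpiSC and 4 B6 DE libraries, with 1 point per library and lines for the means. Krt7, Krt8 and Krt18 lie higher in all DE libraries than in any EpiSC library, Tjp1 lies lower in all of them, and the other 6 genes overlap.

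Krt8, the type II keratin that pairs with Krt18, was at 174, 30.9, 305, 82.2 and 14.2 CPM in B6 EpiSC replicates 1, 2, 4, 44 and 51, and at 2439, 1891, 1725 and 2099.8 CPM in DE replicates 2, 4, 44 and 51. The DE libraries lay close together, while the EpiSC libraries spread over a 21.5-fold range and stayed below all of them. The log2 change was 4.07 ± 0.76 (SE, adjusted p = 0.00093), or 16.8-fold, and the log2 change was 4.75 without EpiSC replicate 4. A pseudogene, Krt8-ps, is annotated, and how reads shared with it were counted is not given in the sources used here.

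Krt18, its type I partner, was at 131, 48.6, 203, 86.9 and 30.0 CPM in the EpiSC libraries in the same order and at 2230.2, 1205, 1063 and 1326 CPM in DE. Again the groups did not overlap, and DE replicate 2 was the highest. The log2 change was 3.87 ± 0.52 (SE, adjusted p = 0.00012), or 14.6-fold. Krt8 and Krt18 are neighbours on chromosome 15 and are read in opposite directions, away from each other.

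Krt7, a type II keratin of ducts, simple glandular epithelium and trophoblast, was at 11.5, 4.15, 11.8, 8.19 and 1.81 CPM in the EpiSC libraries and at 361, 132, 136 and 125 CPM in DE. DE replicate 2 stood above the other 3 DE libraries. The log2 change of 4.65 ± 0.57 (SE, adjusted p = 6.3e-05), or 25.2-fold, was the largest of the 10 genes.

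Krt19, the small type I keratin that lacks a tail domain, was at 12.4, 2.74, 79.9, 4.89 and 2.55 CPM in the EpiSC libraries and at 159, 68.7, 19.6 and 71.7 CPM in DE. EpiSC replicate 4 exceeded 3 of the 4 DE libraries. The log2 difference of 1.96 ± 1.01 (SE) missed the threshold (adjusted p = 0.116). Without EpiSC replicate 4 it was 3.81 with an adjusted p of 0.0016. Krt19 was also called higher with the replicate number as a block, in the libraries whose number both groups hold.

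Among the claudins, Cldn7, which is also found along the lateral membrane, was at 22.0, 43.8, 28.1, 20.9 and 16.6 CPM in the EpiSC libraries and at 129.5, 34.3, 40.7 and 58.4 CPM in DE. Its groups overlapped, since EpiSC replicate 2 exceeded 2 of the DE libraries. The log2 change was 1.32 ± 0.41 (SE, adjusted p = 0.0164), and without DE replicate 2 it was 0.76 with an adjusted p of 0.0586, so the call rests on that library. Cldn4, a sealing claudin of many lining epithelia, was at 14.1, 1.68, 34.3, 6.73 and 0.961 CPM in the EpiSC libraries and at 1.53, 1.41, 0.469 and 0.334 CPM in DE. The groups overlapped because EpiSC replicate 51 lay within the DE range, and replicate 2 was just above it. Cldn4 fell by 3.64 on the log2 scale (SE 1.06, adjusted p = 0.0121), and without EpiSC replicate 4 it was called with a log2 change of -2.66.

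Cldn6, a claudin of embryonic epithelia, was at 56.0, 61.2, 80.7, 49.8 and 43.3 CPM in the EpiSC libraries and at 72.8, 18.1, 16.7 and 26.7 CPM in DE. Only DE replicate 2 was within the EpiSC range, and the log2 difference of -0.80 ± 0.42 (SE) missed the threshold (adjusted p = 0.121). Without DE replicate 2 it was -1.49 (adjusted p = 0.00061). Cldn3, a sealing claudin, was scarce everywhere, at 0.417 to 1.98 CPM in EpiSCs and 0.182 to 3.81 CPM in DE, with a log2 difference of 0.83 (adjusted p = 0.345).

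Reads therefore divided differently among the 4 claudins, a split chosen for description after the values were seen. Cldn7 took 27.4% ± 7.94 (SD, n = 5) of the counts of the 4 genes in EpiSCs and 64.9% ± 3.32 (SD, n = 4) in DE. Cldn6 took 61.2% ± 5.81 in EpiSCs and 31.6% ± 3.12 in DE. For Cldn7 the libraries ranged from 19.4% to 40.6% in EpiSCs and from 61.7% to 68.2% in DE, so the groups were separate in these shares. The shares are of read counts and do not account for transcript length.

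Tjp1 was at 406, 293, 415, 352 and 248 CPM in the EpiSC libraries and at 45.8, 112, 52.7 and 80.2 CPM in DE. Every DE library lay below every EpiSC library, and Tjp1 fell by 2.24 on the log2 scale (SE 0.29, adjusted p = 8.4e-05), which is 4.71-fold. Ocln was at 14.0, 12.6, 14.9, 11.4 and 10.3 CPM in the EpiSC libraries and at 13.0, 17.8, 14.6 and 9.92 CPM in DE. The range of Ocln in DE encloses that in EpiSCs, and the log2 difference was 0.13 (adjusted p = 0.616).

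The B6 EpiSC libraries differed among themselves in an order that 6 of the 10 genes shared: replicate 4 was highest, followed by 1, 44, 2 and 51, for Krt7, Krt8, Krt18, Krt19, Cldn4 and Tjp1. The highest library exceeded the lowest 35.7-fold for Cldn4, 31.3-fold for Krt19, 21.5-fold for Krt8, 6.75-fold for Krt18 and 6.52-fold for Krt7. The range was 1.67-fold for Tjp1 and 1.45-fold for Ocln. In DE the range was 1.41-fold for Krt8, 2.10-fold for Krt18 and 2.89-fold for Krt7.

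Markers of other cells moved with that order, except in replicate 4. The 10 feeder fibroblast markers summed to 53.8, 1032, 354, 956 and 2481 CPM in B6 EpiSC replicates 1, 2, 4, 44 and 51, and to between 63.7 and 238 CPM in DE, and 8 of the 10 fell in DE. None of the 10 was at 0 throughout a group. The 5 DE markers summed to 262, 58.5, 221, 161 and 25.1 CPM in the same EpiSC libraries. From replicate 1 through 44 and 2 to 51, feeder sums rose and DE marker sums fell as keratin mRNA fell. Replicate 4, with the most keratin mRNA, had a higher feeder sum and a lower DE marker sum than replicate 1. The part of either marker set in the differences between EpiSC libraries was not tested. With only EpiSC replicates 1 and 4, which had the lowest feeder sums, a choice made after the data were seen, Krt7, Krt8 and Krt18 were called higher in DE, with log2 changes of 3.94, 3.02 and 3.05, and Cldn4 and Tjp1 lower, at -4.77 and -2.57. Cldn7 was then at 1.31 with an adjusted p of 0.0921.

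Other cell types that carry these keratins were checked in the same way. The 6 trophoblast markers, which include Krt7 itself, summed to 4.21 to 22.4 CPM in EpiSCs and to 151 to 399.8 CPM in DE, and 3 of the 4 tested rose, Krt7 among them. Most of each DE sum was Krt7, at 125 to 361 CPM, so the sum is no separate check on that gene. The sums of the 8 visceral endoderm markers were 2.51 to 6.64 CPM in EpiSCs and 3.75 to 19.1 CPM in DE, and of the 5 tested Apoa1 and Amn rose. Ttr was at 0 in all EpiSC libraries. Those of the 6 parietal endoderm markers were 284 to 1162 CPM and 479 to 779.7 CPM, most of them from Sparc and Lamb1. Of the 5 tested, Lamb1, Pdgfra and Pth1r rose and Thbd fell: Lamb1 averaged 122 CPM in EpiSCs and 281 CPM in DE, Pdgfra 7.24 and 48.6 CPM, and Pth1r was at 0 in every EpiSC library and averaged 48.8 CPM in DE. The 5 surface ectoderm markers, Krt5 and Krt14 among them, stayed at or below 0.939 CPM in sum in every library, and none passed the filter. The part of such cells in the keratin values was not tested.

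**Figure D2:**
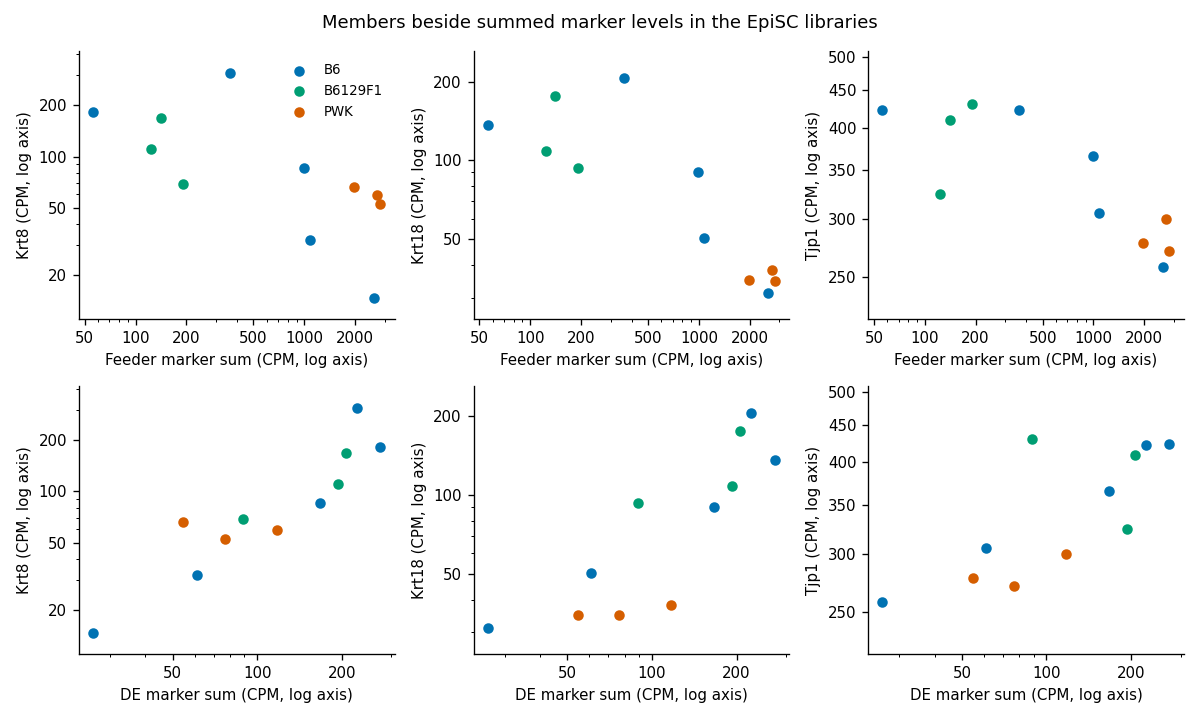
Levels of Krt8, Krt18 and Tjp1 in CPM on log axes against the summed feeder fibroblast markers (upper panels) and the summed DE markers (lower panels) in the B6, F1 (written B6129F1) and PWK EpiSC libraries, with 1 point per library and 1 colour per strain. Among the 5 B6 libraries, the 3 with the highest feeder sums had the lowest levels of all 3 genes, and the 3 PWK libraries have feeder sums of 1976 CPM or more.

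A wider list of 87 genes of keratins, junctions, desmosomes and epithelial regulation gave 62 genes that could be tested, of which 20 rose and 15 fell in DE. The median log2 change of the 62 was 0.33. These are 32.3% and 24.2% of those tested, close to and below the shares of all genes. Of the 18 epithelial regulators and partners tested, 8 rose (44.4%, beside 31.5% of all genes) and none fell (beside 30.6%): Grhl3, Ovol2, Esrp2, Tfap2c, Spint2, Prss8, Elf3 and Ehf. Ovol2, a zinc finger repressor of mesenchymal genes, averaged 147 CPM in DE and 2.69 CPM in EpiSCs, a log2 change of 5.77 ± 0.26 (SE). Grhl3, a grainyhead factor of surface epithelium, averaged 73.1 and 3.73 CPM, with a log2 change of 4.29. Ehf, an ETS factor of epithelia, averaged 21.7 and 1.37 CPM, and Esrp2, a splicing factor of epithelial cells, 47.6 and 5.87 CPM.

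Tight junction genes moved both ways. Of 22 further tight junction genes tested, 5 rose (F11r, Lsr, Mpp5, Crb3 and Pard6b) and 9 fell (Jam3, Marveld3, Ildr2, Cgn, Cgnl1, Mpdz, Prkci, Magi1 and Afdn), or 22.7% and 40.9% beside 31.5% and 30.6% of all genes. Magi1, a scaffold with several PDZ domains, averaged 17.7 CPM in DE and 96.5 CPM in EpiSCs. Mpdz, another such scaffold, averaged 28.8 and 118 CPM. Of 13 desmosome and keratin-binding genes tested, Pkp3, Dsc2 and Perp rose, and Pkp2, Pkp4, Ppl, Plec and Vim fell (23.1% and 38.5%). Plec, a linker of intermediate filaments, averaged 47.5 CPM in DE and 202 CPM in EpiSCs, and Pkp4, a plakophilin relative, 41.1 and 167 CPM. Vim, the intermediate filament protein of mesenchyme, is also expressed by feeder cells, whose markers fell as given above. Of 5 further keratins tested, Krt1 and Krt10 rose (40% of the list). Of 4 further claudins or related genes tested, Cldn23 and Cldnd1 rose and Cldn12 fell (50% and 25%), lists too small to set beside the shares of all genes.

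At the 4 keratin genes most peaks were more accessible in DE. All 21 of their peaks were tested, of which 15 were called more accessible and none less, with a median log2 change of 1.58. At the 4 claudins, 5 of 13 tested peaks were higher and 3 lower, with a median of -0.14, and at Tjp1 7 of 23 were higher and 5 lower. Over all 10 genes, 28 of the 60 tested peaks were higher and 9 lower, where 32.6% of the 113870 peaks tested were called higher and 25.0% lower. The groups did not overlap at 30 of the 60, beside 53.8% of all peaks. Peaks of one gene lie next to each other and are not independent of one another. Other annotated genes lie within 5000 bp of each member except Krt18 and Tjp1, and to which gene a peak belongs was not tested.

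**Figure D3:**
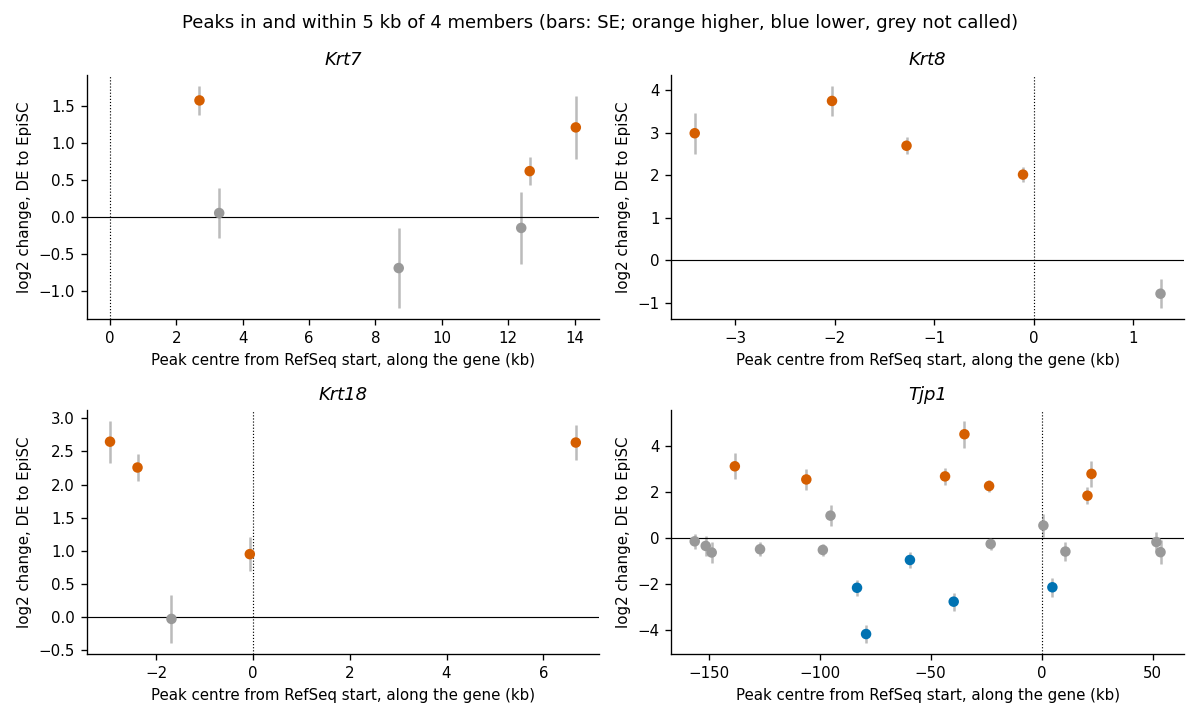
Log2 change in accessibility between B6 EpiSCs and B6 DE of each tested peak in or within 5 kb of 4 of the genes, against the distance of the peak from the RefSeq start, with bars for the SE. Points above 0 are higher in DE, and colours mark calls at an adjusted p under 0.05.

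The peak over the start of Krt8 (chr15:102004246-102004654), which covers the whole run printed above, was at 9.44, 10.5, 12.8 and 13.6 CPM in EpiSC replicates 1, 4, 44 and 51 and at 42.6, 52.7, 51.5 and 38.6 CPM in DE replicates 2, 4, 44 and 51. The groups were well apart, with a log2 change of 2.01 ± 0.17 (SE), or 4.04-fold. A larger peak centred 1279 bp before the start (chr15:102005363-102005879) was at 18.2, 20.4, 8.16 and 15.8 CPM in EpiSCs and 88.9, 130.0, 98.0 and 96.9 CPM in DE, a log2 change of 2.69 ± 0.20 (SE, adjusted p = 3.5e-09). Further peaks before Krt8, centred 2028 and 3408 bp from its start, rose by 3.74 and 2.98 on the log2 scale. The one Krt8 peak not called, inside the gene, had a log2 difference of -0.78 (adjusted p = 0.0575).

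The Krt18 start peak (chr15:102028059-102028247), which holds the AP-2 match of the printed run, was at 5.60, 5.81, 5.10 and 7.75 CPM in EpiSCs and at 13.2, 13.0, 10.6 and 10.4 CPM in DE. Its log2 change was 0.95 ± 0.25 (SE, adjusted p = 0.0028), with no overlap, but the call was lost with the replicate number as a block. The peak centred 2382 bp before the start (chr15:102025669-102025998) was at 5.12, 4.51, 6.12 and 6.20 CPM in EpiSCs and 27.2, 26.3, 25.5 and 24.8 CPM in DE, a log2 change of 2.26. Peaks centred 2950 bp before and 6670 bp after the start rose by 2.65 and 2.63, while a peak centred 1681 bp before it was level at -0.03.

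Krt7 had no peak within 1000 bp of its start. Its peak with the smallest p, inside the gene and centred 2696 bp after the start (chr15:101414846-101415353), was at 10.2, 21.6, 17.6 and 13.9 CPM in EpiSCs and 44.7, 59.1, 42.2 and 44.7 CPM in DE, a log2 change of 1.58 ± 0.20 (SE). For Krt19, whose start is not in the RefSeq start table, the peak at chr11:100147668-100147868 was at 4.16, 5.11, 2.04 and 2.63 CPM in EpiSCs and 11.5, 15.0, 13.3 and 10.1 CPM in DE (log2 change 1.79). A second peak 2783 bp beyond the opposite end of Krt19 (chr11:100137732-100138027) was at 0.960, 1.20, 0.510 and 0 CPM in EpiSCs and at 10.1, 12.7, 8.01 and 4.61 CPM in DE. Thus 4 of 5 Krt19 peaks were called higher while its transcript was not called in the main fit. These 4 lie outside the gene as annotated, and the peak inside it (chr11:100144936-100145184) was not called (0.46, adjusted p = 0.237). Krt15 also lies within 5000 bp of Krt19, and to which gene these peaks belong was not tested.

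At the claudins, the start peak and the transcript did not always move the same way. The Cldn6 start peak (chr17:23679228-23679546) was at 5.44, 5.81, 5.10 and 9.30 CPM in EpiSCs and 24.1, 14.5, 20.5 and 16.1 CPM in DE, and rose by 1.54 on the log2 scale (adjusted p = 2.6e-05), beside the transcript difference of -0.80. The Cldn4 start peak (chr5:134946935-134947300) was at 11.8, 10.0, 6.12 and 14.6 CPM in EpiSCs and at 19.6, 24.8, 14.6 and 13.5 CPM in DE, with overlap, and a log2 change of 0.76 (adjusted p = 0.0153). With the total library size in place of the scaling it was 0.53 with an adjusted p of 0.0755, and the call was also lost without EpiSC replicate 44, DE replicate 2 or DE replicate 4. A weaker peak 3948 bp past the Cldn4 start (chr5:134942942-134943030) was at 4.48, 1.80, 1.79 and 3.25 CPM in EpiSCs and at 0.412, 0, 0.286 and 0 CPM in DE, and was called lower (adjusted p = 0.00013). The DE values rest on at most 3 counts in each library.

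The Cldn3 start peak (chr5:134986046-134986293) was at 22.4, 23.7, 26.0 and 20.4 CPM in EpiSCs and at 20.0, 12.7, 14.7 and 9.80 CPM in DE, and fell by 0.68 on the log2 scale (adjusted p = 0.0078). The start peak of Cldn7 (chr11:69965268-69965529) was at 3.52, 2.40, 3.06 and 8.37 CPM in EpiSCs and at 11.7, 6.91, 7.01 and 10.4 CPM in DE. EpiSC replicate 51 lay within the DE range, and the log2 change of 1.04 (adjusted p = 0.0191) was not called with the total library size (0.84, adjusted p = 0.0534) or without EpiSC replicate 1, 4 or 44 or DE replicate 2. A Cldn7 peak centred 3963 bp before the start was at 7.04, 3.71, 4.34 and 5.73 CPM in EpiSCs and at 2.88, 1.32, 0.859 and 2.31 CPM in DE, a log2 change of -1.55.

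Tjp1, a gene of long introns, had 33 peaks, and the log2 changes of the 23 tested ran from -4.16 to 4.53. Its start peak (chr7:65370388-65370477) was weak, at 2.56, 1.20, 0.255 and 2.01 CPM in EpiSCs and 1.65, 2.80, 2.00 and 2.88 CPM in DE, and was not called (log2 difference 0.56, adjusted p = 0.367). The deepest loss was at chr7:65450269-65450455, within the gene as annotated and before the RefSeq start used here, at 15.5, 13.2, 10.97 and 11.8 CPM in EpiSCs and 1.23, 0.987, 0.286 and 0.288 CPM in DE, a log2 change of -4.16 ± 0.40 (SE). A peak 82 bp from the upstream end of the annotated gene (chr7:65527442-65527768) differed by -0.13 on the log2 scale and was not called. The Ocln start peak (chr13:100552452-100553015) differed by -0.09. A peak within Ocln at chr13:100516614-100516940 was at 6.08, 9.92, 8.67 and 5.89 CPM in EpiSCs and 14.8, 13.7, 16.3 and 10.4 CPM in DE (log2 change 0.86), a call lost without EpiSC replicate 1 or 51.

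The second set of comparisons asks whether EpiSCs of different strains differ in the 10 genes. None was called between PWK and B6, where 12.0% of the 14822 genes tested were called higher and 14.5% lower. An unadjusted p under 0.05 was seen for 1 of the 10, beside 5869 of the 14822 genes. None was called between F1 and B6, where 1.34% were called higher and 1.50% lower. Again 1 of the 10 had an unadjusted p under 0.05, here beside 3614 of the 14822 genes. Between PWK and F1, Krt18 was called lower in PWK and none higher, where 20.7% of all genes were called higher and 19.4% lower. With the total library size the share of higher calls among all calls moved from 45.4% to 56.6% for PWK against B6 and from 51.7% to 62.3% for PWK against F1. These comparisons share libraries, so their values are set side by side only.

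Krt18 was at 136, 50.6, 207, 90.1 and 31.3 CPM in B6 replicates 1, 2, 4, 44 and 51. It was at 34.9, 38.2 and 34.8 CPM in PWK libraries BioRep698 and BioRep695 and the unnumbered library, and at 93.3, 109 and 176 CPM in F1 replicates 4 and 9 and the unnumbered library. PWK lay at the low end of the B6 range, below all 3 F1 libraries. The log2 difference was -1.81 ± 0.59 (SE, adjusted p = 0.0329) from F1 and -1.52 ± 0.54 (SE, adjusted p = 0.0633) from B6. The former was lost with no filter (adjusted p = 0.0584) and in 5 of the 6 fits that leave out 1 PWK or F1 library, with adjusted p-values from 0.0466 to 0.106 over the 6. The latter was called without B6 replicate 2 (-1.69, adjusted p = 0.0432), without B6 replicate 51 (-1.75, adjusted p = 0.0133) and by DESeq2 (-1.50, adjusted p = 0.023).

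All 10 genes had negative log2 differences in PWK against F1, and for 6 of them the groups did not overlap, beside 62.5% of all genes. In a fit with only these 2 groups, which does not carry the wide spread of the B6 libraries, 7 of the 10 were called lower in PWK: Krt7 (-1.04), Krt8 (-0.97), Krt18, Krt19 (-1.92), Cldn4 (-1.85), Cldn7 (-0.64) and Tjp1 (-0.47). In that fit 3880 of all 14398 genes tested were called lower and 3935 higher, also more than in the joint fit. Ocln was called lower without PWK library BioRep698 (-0.76, adjusted p = 0.0296) and Tjp1 without F1 replicate 9 (-0.57, adjusted p = 0.0409). Krt8 was at 182, 32.2, 311, 85.2 and 14.8 CPM in B6, at 66.3, 59.1 and 52.5 CPM in PWK and at 68.7, 110.1 and 168 CPM in F1. All PWK libraries lay just below the lowest F1 library and inside the B6 range. Krt7 was at 7.29, 8.11 and 6.66 CPM in PWK and 7.61, 19.6 and 18.1 CPM in F1, within or above the B6 range of 1.88 to 12.0 CPM. Krt19 was at 4.72, 4.34 and 5.83 CPM in PWK and 20.1, 13.2 and 22.6 CPM in F1, and Cldn4 at 4.32, 3.53 and 2.94 CPM in PWK and 9.35, 8.58 and 20.7 CPM in F1. Both kept to the B6 ranges of 2.65 to 81.4 and 1.000 to 34.9 CPM. Cldn7 was at 27.4, 30.1 and 24.8 CPM in PWK, 37.2, 49.0 and 41.2 CPM in F1 and 17.2 to 45.7 CPM in B6. Its log2 difference from B6 in F1 was 0.64 (adjusted p = 0.163), and 0.91 (adjusted p = 0.0192) without B6 replicate 2.

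Tjp1 was at 278, 299.8 and 271 CPM in PWK, 431, 325 and 410.0 CPM in F1 and 258 to 423 CPM in B6. It was not called between PWK and B6, except without B6 replicate 51 (log2 change -0.42, adjusted p = 0.0327). Cldn6 and Ocln overlapped in all 3 groups: Cldn6 ran from 40.9 to 87.8 CPM and Ocln from 8.53 to 19.9 CPM over the 11 libraries. Cldn3 was at or below 2.02 CPM in each.

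The feeder markers differ between these groups too. Their sums were 1976, 2703 and 2823 CPM in PWK, 191, 123 and 141 CPM in F1, and 56.2, 1076, 361, 991 and 2582 CPM in B6. Sums of the DE markers were 54.6, 117 and 76.7 CPM in PWK and 89.1, 193 and 206 CPM in F1, against 26.1 to 274 CPM in B6. In PWK against F1 a difference in strain and a difference in feeder reads cannot be told apart, since the 2 groups do not overlap in the feeder sum. Reads of every strain were placed on the assembly mm10, and the effect of sequence differences between strains on the counts was not tested.

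**Figure D4:**
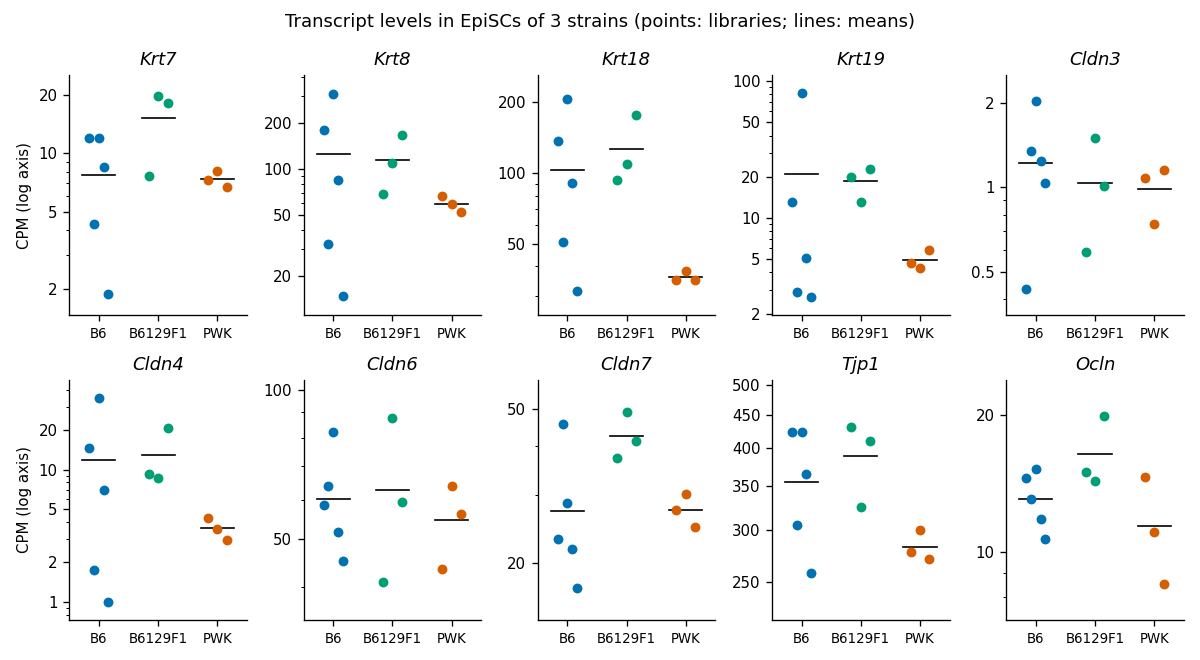
Level of each of the 10 transcripts in CPM on a log axis in the 5 B6, 3 F1 (written B6129F1) and 3 PWK EpiSC libraries, with 1 point per library and lines for the means. The PWK points lie within or near the low end of the B6 points for Krt18 and below the F1 points for 6 genes, and the B6 points spread most for Krt8, Krt19 and Cldn4.

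The DBA library, which has no replicate and no test, was set beside the B6 libraries. Of the 10 genes, 6 lay over 2-fold below the B6 mean and none over 2-fold above it, where 7.89% of the 12796 genes compared differed by more than 2-fold in either direction. The 6 were Krt8 at 28.9 CPM, Krt18 at 28.9 CPM, Krt19 at 3.32 CPM, Cldn4 at 0.559 CPM, Cldn7 at 13.3 CPM and Ocln at 4.96 CPM. Against the range of the B6 libraries, Krt18, Cldn4, Cldn6, Cldn7 and Ocln lay below it, Cldn3 above it at 2.42 CPM, and the other 4, Krt8 and Krt19 among them, within it. How many of all genes lie outside the B6 range was not counted, so these positions do not set the 10 genes apart. For Krt8 and Krt19 the B6 libraries ran from 14.4 to 312 and from 2.60 to 81.7 CPM, around means of 125 and 21.0 CPM. Feeder markers were not summed in the DBA library, and their part in these differences was not tested. In ATAC-seq, 3 of the 61 member peaks compared were over 2-fold higher and 4 over 2-fold lower in DBA, where 20.3% of all peaks differed by more than 2-fold.

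Accessibility at the 10 genes was also compared between PWK and B6 EpiSCs. Of 77 peaks, 60 were tested, of which 1 was called higher and 1 lower in PWK, where 1.42% of the 137667 peaks tested were called higher and 3.68% lower. The log2 differences of the 60 peaks ran from -2.08 to 1.55. The higher one was the Cldn7 start peak (chr11:69965238-69965481), at 3.97, 2.55, 3.59 and 8.67 CPM in B6 replicates 1, 4, 44 and 51 and at 11.9 and 14.6 CPM in PWK (log2 change 1.50 ± 0.40 SE, adjusted p = 0.0445). That call was lost in 5 of the 6 fits without 1 library and with at least 10 counts required in every library. The lower one was a Tjp1 peak at chr7:65454278-65454607, with a log2 change of -2.08 (adjusted p = 0.001). The start peak of Krt8 was at 7.79, 9.89, 11.03 and 12.4 CPM in B6 and 19.4 and 13.4 CPM in PWK, and that of Krt18 at 5.56, 6.17, 5.13 and 7.74 CPM in B6 and 3.42 and 2.50 CPM in PWK. The groups did not overlap for either, but neither was called (adjusted p = 0.202 and 0.179). Such separation was seen at 12 of the 60 peaks, beside 26.3% of all peaks tested. Only 2 PWK libraries limit the precision here.

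Ratios of 2 genes within a library do not depend on scaling, and 4 such differences were tested with a two-sided exact permutation test. The log2 ratio of Krt8 to Krt18 counts was 0.54 ± 0.27 (SD, n = 4) in DE and -0.16 ± 0.71 (SD, n = 5) in B6 EpiSCs, a difference of 0.70 (exact permutation p = 0.111, adjusted over the 4 tests 0.148). It was 0.72 ± 0.18 (SD, n = 3) in PWK EpiSCs, 0.88 above B6 (exact permutation p = 0.0714, adjusted 0.143). The log2 ratio of Cldn4 to Cldn3 was -0.81 ± 1.40 in DE and 2.38 ± 2.23 in B6 EpiSCs, a difference of -3.19 (exact permutation p = 0.0635, adjusted 0.143). In PWK it was 1.85 ± 0.46, a difference of -0.53 from B6 (exact permutation p = 0.696, adjusted 0.696). The smallest p that the group sizes allow is 0.00794 for DE against B6 EpiSCs and 0.0179 for PWK against B6, and none of the 4 differences passed after adjustment.

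Across the 16 RNA libraries, which share both cell states and the strains, the levels of Krt8 and Krt18 in log2 CPM had a Pearson r of 0.976, those of Krt7 and Krt8 of 0.958, and those of Krt7 and Tjp1 of -0.841. These values describe libraries that fall into 2 cell states, and no test is given. Among 16536 genes, the one whose pattern was most like that of each member was Foxq1 for Krt7 (r = 0.983), Adgrg1 for Krt8 (0.986), Txndc12 for Krt18 (0.990), Rasl10a for Krt19 (0.936) and Kdm4a for Tjp1 (0.992). For the claudins and Ocln it was Col9a2 for Cldn3 (0.895), Afdn for Cldn4 (0.925), Bmp5 for Cldn6 (0.898), Mrgbp for Cldn7 (0.908) and Grb10 for Ocln (0.868).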

How the data were processed

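Per the submitters' processing notes, reads were placed on mm10, with Salmon, featureCounts and DESeq2 named for RNA-seq and fastp, Bowtie2, MACS2, featureCounts and DESeq2 for ATAC-seq, in no stated order. As deposited, values are raw counts for each Ensembl gene and for each peak, with 1 peak set for all libraries of a table per the file headers. Whether strand was used in counting, and whether peak starts count from 0 or 1, is not given in the sources used here.

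Of 30 samples, 27 were used (16 RNA-seq, 11 ATAC-seq). No column matched the 3 PWK DE samples, which were left out, and 17 columns that belong to other series stayed unused. In 3 groups the name of 1 column shows the strain but no replicate of the labels, and that library is called unnumbered. No 2 replicates agreed within sampling noise: the chi-square per feature was at least 10.2 in 22 pairs of RNA libraries and at least 2.87 in 13 pairs of ATAC libraries.

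Quasi-likelihood fits over all genes or peaks (edgeR 4.0.16 under R 4.3.3, robust, scaled by TMM, filtered by filterByExpr) gave the p-values, adjusted by Benjamini-Hochberg and called under 0.05. B6 DE and B6 EpiSCs were fitted alone, and the RNA of the 3 replicated EpiSC groups in 1 fit. Alternatives were RLE scaling and total library size, DESeq2 1.42.0, no filter, at least 10 counts, each library omitted in turn, calls past 2-fold, a replicate block, only the groups compared, and peak distances of 2000 and 20000 bp. The fit with 2 EpiSC libraries was chosen after seeing the data. The script was tested on simulated data. Gene positions and start regions came from RefSeq tables of GRCm38.p6, and 29270 identifiers had a symbol. The ratios used a pseudocount of 0.5.

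Beside the members, the text names the most covered peak within 1000 bp of each start (within 2000 bp of an end for Krt19), the peak with the smallest p in the DE comparison, the 4 wider-list genes of largest change in each direction among called genes without overlap and with a mean log2 CPM of at least 1, and the gene of highest r with each member. Other genes and peaks are named to account for a count, or were chosen after their values were seen. The members and lists were chosen with earlier results of these data known.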

Additional observations from a re-analysis of the deposited data

Results flagged for a closer look

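In 54 groups of 4 or 5 libraries, 4 values lay farther from their group than Dixon's 95% limit allows, and chance alone gives about 1 in 20 groups. Krt7 in DE replicate 2 was at 361 CPM, with the next library at 136 CPM. Krt19 in B6 EpiSC replicate 4 was at 79.9 CPM, with the next at 12.4 CPM. The Krt7 peak inside the gene in DE replicate 4 was at 59.1 CPM, with the next at 44.7 CPM. The Cldn6 start peak in B6 EpiSC replicate 51 was at 9.30 CPM, with the next at 5.81 CPM.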

How the results depend on the processing

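In B6 DE against B6 EpiSCs the counts of genes called (4 higher, 2 lower) stayed within 1.5 times their value under every alternative run. Counts that moved more were these. Member genes lower in PWK than in B6 were 1 with DESeq2, and those lower in PWK than in F1 were 2 with DESeq2, 0 with no filter and 7 with only the groups compared. DE peaks called higher were 14 with at least 10 counts in every library, 11 within 2000 bp and 45 within 20000 bp, and those called lower were 4 with at least 10 counts and 1 within 2000 bp. For PWK peaks, 0 were higher with at least 10 counts and 0 lower within 2000 bp. Differences that changed sign were Cldn7 in PWK against B6 with no filter (-0.0047), Cldn3 in PWK against F1 with total library size (0.017) and Ocln in DE with 2 EpiSC libraries (-0.13), none of them called. The cause was not tested.

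With 1 library left out, counts ranged from 0 to 2 for genes lower in PWK than in B6, 0 to 1 for genes higher in F1, 0 to 1 for genes lower in PWK than in F1, 9 to 15 for DE peaks lower (15 without EpiSC replicate 51), 0 to 1 for PWK peaks higher and 1 to 2 for PWK peaks lower. The difference from B6 EpiSCs in the log2 ratio of Cldn4 to Cldn3 ranged from -3.80 to -2.54 for DE and from -1.14 to 0.13 for PWK. Log2 differences that crossed 0 ranged from -0.010 to 0.26 for Ocln in DE, from -0.32 to 0.14 for Krt7 and -0.11 to 0.28 for Cldn7 in PWK, from -0.35 to 0.30 for Cldn3 and -0.44 to 0.12 for Cldn6 in PWK against F1, and from -0.14 to 0.73 for the Cldn6 start peak in PWK. In F1 they ranged from -0.48 to 0.56 for Krt8, -0.027 to 0.71 for Krt18, -0.46 to 1.66 for Krt19, -0.60 to 0.043 for Cldn3, -0.40 to 1.07 for Cldn4 and -0.27 to 0.29 for Cldn6.

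Whether replicate numbers pair the samples is not settled. Deviations of RNA libraries with the same number correlated at 0.0958, 0.0881, 0.183 and 0.237, each DE library best with its own number. In ATAC-seq the values for the same number were 0.0213, -0.0052 and 0.0485, and DE replicate 44 correlated better with EpiSC replicate 4 than with its own number. With the number as a replicate block, 5 member genes were higher and 2 lower, against 4 and 2 without it in the same libraries. Of all 13961 genes tested, 3792 were higher and 3939 lower with the block, against 4171 and 4026 without it. Krt19 was called with the block (3.15, adjusted p = 0.0492). Member peaks with the block were 19 higher and 8 lower, against 21 and 9. Of all 121694 peaks tested, 32883 were higher and 21504 lower with the block, against 35207 and 26136 without it. The Krt18 start peak had an adjusted p of 0.0603 with the block. The blocked ratio differences were 0.84 (exact permutation p = 0.125) and -2.54 (exact permutation p = 0.25). Here the permutations were sign flips within 4 pairs, for which 0.125 is the smallest p possible, so neither could pass. With total library size, the median log2 change of all genes in the DE comparison was -0.10, against -0.01 in the main fit. For all peaks it was -0.22, against -0.005.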
